A study of Mus musculus with 18 samples.

Results

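The comparison is of M1 against M2 macrophages that both lack *Prep*, the gene of prolyl endopeptidase, a peptidase that cuts short peptides after proline. Its members are 6 of the 18 libraries of the study: 3 libraries of *Prep*-/- M1 and 3 of *Prep*-/- M2 bone marrow-derived macrophages (BMDMs), chosen by genotype and treatment and not by any measured value. All 6 come from femoral bone marrow of *Prep*-/- mice on a C57BL6/J background, cultured for 7 days in RPMI medium with serum and 50 ng/ml M-CSF, the growth factor that turns precursors into macrophages. The M1 cells then received LPS, a bacterial cell wall component, at 50 ng/ml for 24 h. The M2 cells received the cytokines IL-4 and IL-13 at 20 ng/ml each for 24 h. Heterozygous littermates (*Prep*+/-), treated in the same manner, and unstimulated (M0) cultures of both genotypes make up the other 12 libraries. The study describes its *Prep* knockout as global and not specific to macrophages. RNA was measured in bulk from whole cultures. The replicates are described as biological. Nothing in the labels says whether a replicate is a mouse or a dish, so p-values measure the spread between these libraries only.

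LPS binds the receptor of CD14, TLR4 and MD-2 and activates NF-kappaB and, through interferon beta, the interferon response. IL-4 and IL-13 bind receptors that share the IL-4 receptor alpha chain and activate the factor STAT6. Macrophages under LPS produce inflammatory cytokines and nitric oxide, while those under IL-4 and IL-13 make arginase, lectins and chitinase-like proteins.

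The 6 libraries held between 21453635 and 22598279 counts in M1 and between 19560715 and 21614381 in M2. *Prep* stood at 35.2, 47 and 59.2 normalized counts in the M1 libraries and at 68.1, 50.8 and 60.9 in the M2 libraries (log2 fold change M1 minus M2 -0.34, adjusted p = 0.165), against 681, 551 and 663 and 799, 810.4 and 851 in *Prep*+/- M1 and M2. A normalized count is the count scaled to a common library size, so it can be compared between libraries of 1 gene but not between genes. Which part of the gene was deleted is not given in the sources used here. In a principal component analysis of the 6 libraries, the first component held 83.4% of the variance and separated M1 from M2. The second held 9.29% and set M2 replicate 3 (-49.8) apart from M2 replicates 1 and 2 (22.5 and 26.5). M2 replicates 1 and 2 correlated at r = 0.991 over genes in log2 CPM, whereas M2 replicate 3 correlated with them at 0.970 and 0.966. Macrophage markers summed to 31900 to 37800 CPM in M1 and 14400 to 20000 CPM in M2, with 6 of 10 called higher in M1 and none at 0. Most of each sum was *Lyz2* (20400 to 26200 CPM in M1 and 9540 to 14700 in M2). *Csf1r* (1110 to 1240 CPM in M1 and 1300 to 1980 in M2) and *Cd68* (1100 to 1480 and 1570 to 1660) ran the other way, but 0 of the 10 were called higher in M2. Granulocyte markers summed to 70.3 to 99.5 CPM in M1 and 54.8 to 83.6 in M2, and those of B cells, T and NK cells, dendritic cells, stromal cells and erythroid cells to at most 18 CPM in any library. In bulk samples, fewer cells of a type and less RNA per cell cannot be told apart.

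Of 16314 gene symbols, 12021 passed the filter on low counts and were tested. Of these, 2313 (19.2%) were higher in M1 and 2315 (19.3%) were higher in M2, by the criteria of the study (an adjusted p under 0.05, here from edgeR, with a difference of more than 1.5-fold). Together the 4628 differentially expressed genes (DEGs) made up 38.5% of the genes tested. A log2 fold change is M1 minus M2 throughout, so a positive value is higher in M1. The median absolute log2 fold change was 1.29 in DEGs higher in M1 and 1.12 in those higher in M2, and the median over all genes was -0.02. More than 8-fold differences were seen in 365 DEGs higher in M1 and 331 higher in M2, and more than 32-fold differences in 147 and 130. The 3 M1 libraries did not overlap the 3 M2 libraries in 59.1% of genes, with M1 above in 29.3% and M2 above in 29.8%. Of the genes given with counts in each library here, the groups overlapped in *Ccl3*, *Ccl4*, *Gbp8*, *Odc1*, *Sqle*, *Cyp51*, *Cd36*, *Cd163*, *Pcna*, *Prepl*, *Prep*, *Acpp*, *Mmp9* and *Phlda1* and in no other. A group whose libraries all hold 3 counts or fewer is called at the floor, and a fold change against such a group is written as at least that large. M2 was at the floor in 121 of the DEGs higher in M1, and M1 in 149 of those higher in M2.

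**Figure D1:**
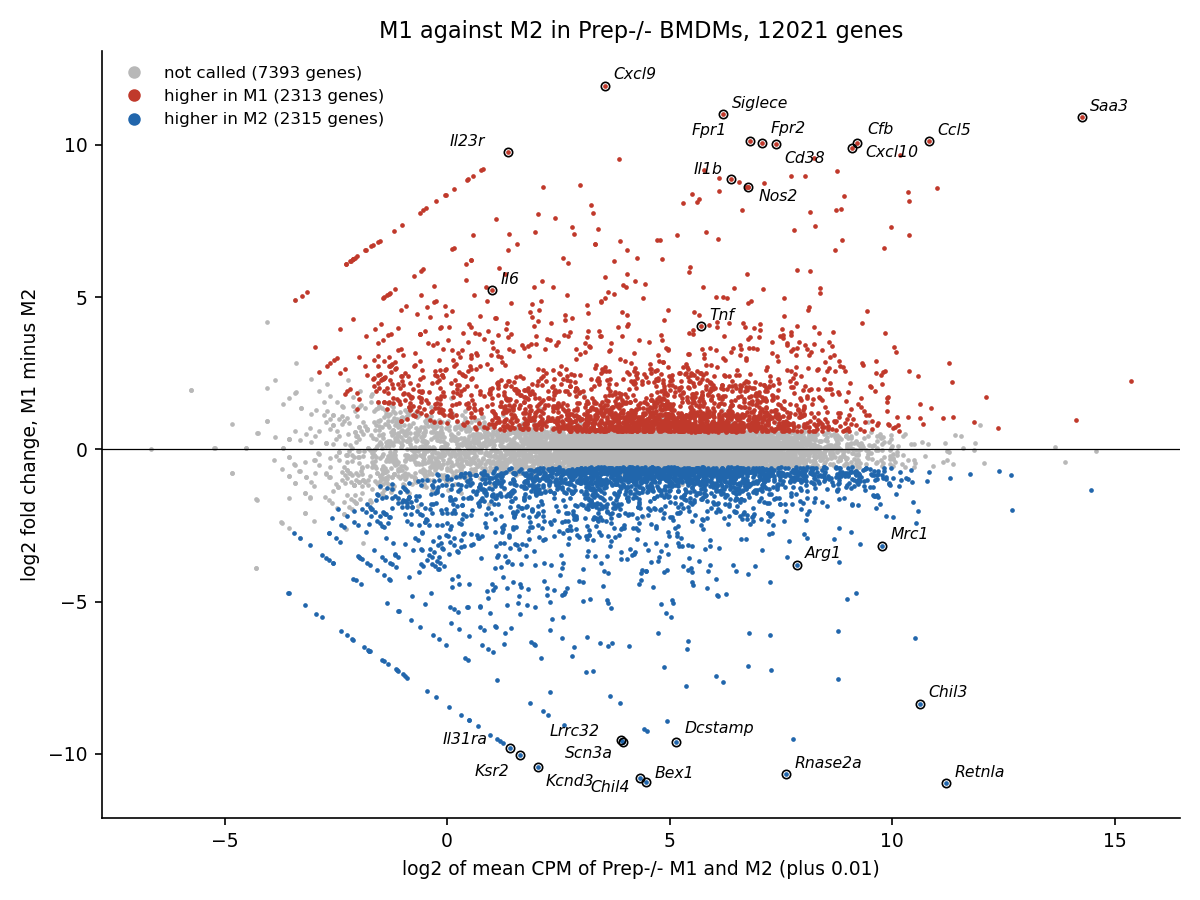
Log2 fold change of M1 against M2 (y axis) by the log2 of the mean CPM of *Prep*-/- M1 and M2 (x axis), 1 point per gene for the 12021 genes tested, in red for 2313 DEGs higher in M1 and in blue for 2315 higher in M2. Circled genes are the 10 with the largest fitted fold change in each direction and the study's other markers, which lie at 4.06 and above or at -3.16 and below.

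All 8 markers that the study uses for M1 and M2 were DEGs, 4 in each direction, and the groups did not overlap in any of them. *Nos2* (chr11:78811613-78851080, GRCm39), the inducible nitric oxide synthase, gave 7996, 2309 and 3443 normalized counts in M1 and 28.7, 3.17 and 3.04 in M2 (log2 fold change 8.62, SE 0.70, adjusted p = 2.5e-08). M1 replicate 1 and M2 replicate 1 were each the highest of their group. Without M2 replicate 1 its log2 fold change was 10.46, and without M1 replicate 1 it was 7.92. *Il1b* (chr2:129206490-129213059), which encodes the cytokine IL-1 beta, gave 2036, 4321 and 4233 in M1 and 8.52, 5.29 and 8.12 in M2 (log2 fold change 8.89, SE 0.58, adjusted p = 2.11e-09). *Tnf* (chr17:35418357-35420983) gave 1585, 1876 and 2761 in M1 and 55.4, 36 and 280.0 in M2 (log2 fold change 4.06, SE 0.57, adjusted p = 1.51e-05), with M2 replicate 3 well above the other M2 libraries, and without that library the value was 5.47. *Il6* (chr5:30218112-30224979), which had the fewest counts of the 4, gave 106, 59.8 and 84 in M1 and 3.19, 3.17 and 0 in M2, so M2 was at the floor and M1 was at least 26.5-fold higher (adjusted p = 3.09e-06).

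On the M2 side, *Arg1* (chr10:24791118-24803817), the arginase that turns arginine into ornithine, gave 553, 551 and 893 in M1 and 7059, 10010.0 and 10471 in M2 (log2 fold change -3.79, SE 0.27, adjusted p = 6.99e-09). *Mrc1* (chr2:14234151-14336926), the mannose receptor, gave 4118, 3288 and 3815 in M1 and 33911, 40849 and 25609.7 in M2 (log2 fold change -3.16, SE 0.18, adjusted p = 5.75e-10). *Chil3* (chr3:106054870-106074880), a chitinase-like lectin, gave 178, 216 and 219 in M1 and 85085, 64644 and 50066 in M2 (log2 fold change -8.35, SE 0.42, adjusted p = 1.32e-10). *Retnla* (chr16:48662895-48664824), a secreted resistin-like protein, gave 25.3, 56.6 and 70.0 in M1 and 129537, 103427 and 69548 in M2 (log2 fold change -10.95, SE 0.79, adjusted p = 6.49e-09), the largest difference of the 8. *Chil3* and *Chil4* share stretches of 92.8% to 94.3% identity, and *Retnla* and *Retnlg* one of 91.3%. How reads that match several genes were counted is not given in the sources used here, so their levels are uncertain to that extent.

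The unstimulated *Prep*-/- cultures give a reference for these markers. Both comparisons with M0 share the 3 M0 libraries. The log2 fold change of *Nos2* against M0 was 10.08 (SE 0.77, adjusted p = 2.24e-08) in M1 and 1.46 (SE 1.2, adjusted p = 0.348) in M2. *Arg1* was higher than in M0 in both states, by 5.38 (SE 0.35, adjusted p = 3.31e-09) in M1 and by 9.17 (SE 0.38, adjusted p = 4.69e-11) in M2. *Mrc1* moved in opposite directions, by -2.31 (SE 0.18, adjusted p = 2.06e-08) in M1 and by 0.85 (SE 0.17, adjusted p = 6.79e-04) in M2. *Tnf* was higher than in M0 in M1, by 3.93 (SE 0.56, adjusted p = 1.8e-05), and gave -0.13 (SE 0.56, adjusted p = 0.876) in M2. *Il1b* lay on either side of M0, by 5.18 (SE 0.44, adjusted p = 6.3e-08) in M1 and by -3.71 (SE 0.62, adjusted p = 1.58e-04) in M2.

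**Figure D2:**
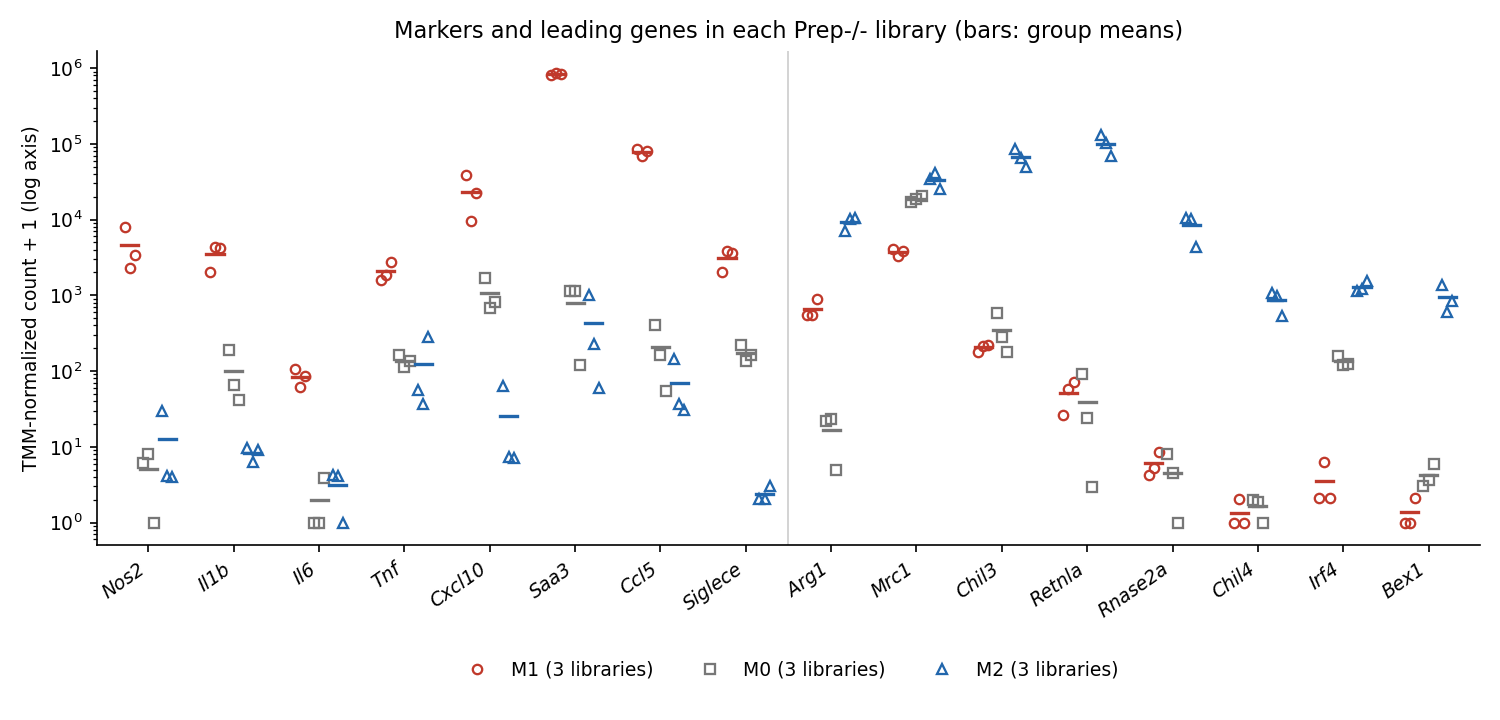
Normalized counts plus 1 on a log axis (y axis) of 16 genes (x axis) in each *Prep*-/- library, with M1 as red circles, M0 as grey squares, M2 as blue triangles and bars at the group means. The M1 and M2 libraries do not overlap in any of the 16 genes, and M2 replicate 3 is the highest M2 library for *Tnf* but the lowest for *Retnla* and *Rnase2a*.

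The promoters of some of these genes are shown because both stimuli act through factors that bind short known sequences. Those printed all hold a match, which many other markers and leading genes lack, as given below. They are the 250 bases before the most upstream start that RefSeq lists, on build GRCm38.p6, which differs from the GRCm39 of the counts, each written 5′ to 3′ on the strand of the gene, with motif matches on either strand in capitals. The *Cxcl10* promoter (chr5:92348890-92349139, minus strand) holds GAAA and GAAA 2 bases apart, the core of the interferon-stimulated response element, at -213 and the NF-kappaB consensus at -159, -104 and -103, where the last matches overlap. The *Il6* promoter (chr5:30012864-30013113, plus strand) holds the NF-kappaB consensus at -44.
Cxcl10: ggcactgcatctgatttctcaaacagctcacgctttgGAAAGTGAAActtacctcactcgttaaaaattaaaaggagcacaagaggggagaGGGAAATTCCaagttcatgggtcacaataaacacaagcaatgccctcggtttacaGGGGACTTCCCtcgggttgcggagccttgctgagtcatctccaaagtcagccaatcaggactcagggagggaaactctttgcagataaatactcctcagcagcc
Il6: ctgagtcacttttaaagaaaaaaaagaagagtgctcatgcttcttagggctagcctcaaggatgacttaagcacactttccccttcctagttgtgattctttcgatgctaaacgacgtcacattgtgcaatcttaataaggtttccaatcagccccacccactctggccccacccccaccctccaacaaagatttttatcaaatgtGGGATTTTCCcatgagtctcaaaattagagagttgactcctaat
The *Retnla* promoter (chr16:48842359-48842608, plus strand) holds TTC and GAA 4 bases apart, the spacing that STAT6 prefers, at -145 and TATAAA at -30. The *Chil3* (chr3:106167565-106167814, minus strand) and *Chil4* (chr3:106219480-106219729, minus strand) promoters hold TTC and GAA 3 bases apart, the spacing of other STAT factors, at -172 and -200, and *Chil4* also TATAAA at -31.
Retnla: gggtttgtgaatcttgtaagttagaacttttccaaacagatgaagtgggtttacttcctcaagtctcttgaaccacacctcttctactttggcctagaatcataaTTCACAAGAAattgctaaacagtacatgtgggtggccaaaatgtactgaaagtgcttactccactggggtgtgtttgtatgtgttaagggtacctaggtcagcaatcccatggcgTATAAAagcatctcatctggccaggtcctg
Chil3: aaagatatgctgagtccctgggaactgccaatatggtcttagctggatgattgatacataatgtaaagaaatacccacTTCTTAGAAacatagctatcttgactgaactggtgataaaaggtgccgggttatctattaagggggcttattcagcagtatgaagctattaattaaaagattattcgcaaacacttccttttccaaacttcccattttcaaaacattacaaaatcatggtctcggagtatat
Chil4: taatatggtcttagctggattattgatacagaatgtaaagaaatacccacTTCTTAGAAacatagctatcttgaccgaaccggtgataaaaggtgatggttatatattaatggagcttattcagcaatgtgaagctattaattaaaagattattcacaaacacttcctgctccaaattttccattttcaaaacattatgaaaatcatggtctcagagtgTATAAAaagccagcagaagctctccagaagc
A promoter was found for 9681 of the 12021 genes tested (80.5%). Over these, 8.69% held the NF-kappaB consensus, 2.82% the GAAA pair, 4.7% TTC and GAA 4 bases apart, 5.99% TTC and GAA 3 bases apart and 6.36% TATAAA. In DEGs more than 8-fold higher in M1, 45 of 291 promoters held the GAAA pair (15.5%) and 44 the NF-kappaB consensus (15.1%). In DEGs more than 8-fold higher in M2, 7 of 237 held the former (2.95%) and 26 the latter (11%). TTC and GAA 4 bases apart stood in 24 of the 237 (10.1%) and in 18 of the 291 (6.19%). Of the other markers and leading genes with a sole listed start, *Tnf*, *Il1b*, *Cxcl9* and *Fpr1* held only TATAAA. *Siglece*, *Cd38*, *Il23r*, *Mrc1*, *Rnase2a*, *Bex1*, *Kcnd3* and *Ksr2* held none of these motifs. *Saa3* held the GAAA pair, and *Fpr2* and *Il31ra* held TTC and GAA 3 bases apart. A match is a stretch of letters and not a measured binding site.

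The 10 largest fitted log2 fold changes toward M1 were taken from DEGs without overlap whose M1 mean reached 5 CPM. They came from 3 chemokines, an acute phase protein, a complement protein and 2 receptors for bacterial peptides. The others were a sialic acid receptor, an NAD-consuming enzyme and a cytokine receptor chain. Where a group was at the floor, the fitted value exceeds the lower bound given, so the rank of these genes is uncertain. *Cxcl9* (chr5:92469206-92475945), an interferon-induced chemokine, gave 734, 388 and 356 in M1 and 0 in every M2 library (at least 157-fold higher, adjusted p = 1.33e-08). *Saa3* (chr7:46361422-46365576), an acute phase apolipoprotein, gave 806687, 854273 and 831761 in M1 and 1016, 226 and 58.8 in M2 (log2 fold change 10.91, SE 1.06, adjusted p = 2.42e-07), and it held the most counts in the M1 libraries after *Fth1*. The M2 libraries of *Saa3* spread widely, and without M2 replicate 1 the value was 12.50. *Ccl5*, a chemokine for T cells and monocytes, gave 84129, 68542 and 79185 in M1 and 143, 36 and 29.4 in M2 (log2 fold change 10.12, adjusted p = 5.39e-09). *Cxcl10*, another interferon-induced chemokine, gave 38305, 9435 and 22174 in M1 and 61.8, 6.35 and 6.09 in M2 (log2 fold change 9.89, adjusted p = 2.4e-08). *Cfb*, complement factor B, gave 25241, 24588 and 25171 in M1 and 46.8, 13.8 and 9.13 in M2 (log2 fold change 10.07, adjusted p = 2.31e-10). *Cfb* shares identical sequence with a predicted gene and with *Nelfe*, so its level is uncertain to that extent. In *Ccl5*, *Cxcl10* and *Cfb* M2 replicate 1 was the highest M2 library, and without it their log2 fold changes were 11.19, 11.83 and 11.07. For *Cxcl10* the value was 9.3 without M1 replicate 1.

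The formyl peptide receptors, which sense peptides of bacteria, were also among the 10. *Fpr1* gave 3468, 5272 and 5542 in M1 and 6.39, 3.17 and 3.04 in M2 (log2 fold change 10.11, adjusted p = 1.89e-10). *Fpr2* gave 5677, 5355 and 6096 in M1 and 9.58, 3.17 and 3.04 in M2 (log2 fold change 10.06, adjusted p = 4.43e-10, and 10.77 without M2 replicate 1). *Cd38*, an enzyme that consumes NAD, gave 6325, 7011 and 7788 in M1 and 7.45, 7.4 and 5.07 in M2 (log2 fold change 10.03, SE 0.31, adjusted p = 8.79e-13), the smallest standard error of the 10. *Siglece*, an inhibitory sialic acid receptor, gave 2011, 3794 and 3585 in M1 and 1.06, 1.06 and 2.03 in M2 (at least 998-fold higher, adjusted p = 3.03e-12). *Siglece* overlaps *Ceacam18* on the opposite strand. *Il23r*, a chain of the IL-23 receptor, gave 109, 112 and 106 in M1 and 0 in every M2 library (at least 34.7-fold higher, adjusted p = 1.57e-08).

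Toward M2, the 10 largest fitted log2 fold changes included secreted and membrane proteins that M1 libraries barely held. For those with M1 at the floor the rank is likewise uncertain. *Retnla* led. *Rnase2a* (chr14:51492719-51493595), a ribonuclease of the eosinophil-associated family, gave 3.3, 4.27 and 7.54 in M1 and 10603, 10092 and 4325 in M2 (log2 fold change -10.66, SE 0.45, adjusted p = 2.08e-11). *Bex1*, a small protein known from neurons, gave 0, 0 and 1.08 in M1 and 1376, 604 and 848 in M2 (at least 291-fold higher in M2, adjusted p = 9.33e-11). *Chil4*, the relative of *Chil3*, gave 0, 1.07 and 0 in M1 and 1068, 974 and 532 in M2 (at least 264-fold, adjusted p = 7.77e-11). *Bex1* has stretches in common with *Bex2*, *Bex4* and *Tceal7* and is uncertain for that reason. *Scn3a*, a sodium channel subunit, gave 0, 2.13 and 0 in M1 and 754, 789 and 425 in M2 (at least 202-fold, adjusted p = 1.02e-09). *Kcnd3*, a potassium channel subunit, gave 0 in every M1 library and 163, 215 and 142 in M2 (at least 53.4-fold, adjusted p = 1.78e-08). *Scn3a* has a stretch of 92.7% identity with *Scn1a*.

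*Ksr2*, a scaffold of the MAP kinase pathway, and *Il31ra*, a chain of the IL-31 receptor, were also at 0 in the 3 M1 libraries. *Ksr2* gave 84.1, 86.7 and 225 in M2 (at least 40.7-fold, adjusted p = 1.53e-06). *Il31ra* gave 83, 85.7 and 166 (at least 34.4-fold, adjusted p = 3.38e-06). In both, M2 replicate 3 was the highest, and without it *Ksr2* was at least 26.3-fold higher in M2. *Dcstamp*, a membrane protein needed for the fusion of macrophages into giant cells, gave 2.2, 1.07 and 2.15 in M1 and 356, 244 and 3875 in M2 (at least 459.8-fold, adjusted p = 3.59e-05). *Lrrc32*, which tethers latent TGF-beta to the cell surface, gave 2.2, 0 and 0 in M1 and 244, 126 and 1525 in M2 (at least 195-fold, adjusted p = 9.04e-05). M2 replicate 3 stood far above its fellows in *Dcstamp* and *Lrrc32*, and without it they were at least 92.5-fold (adjusted p = 1.11e-05) and at least 57-fold higher in M2 (adjusted p = 6.95e-05). In *Prep*+/- M2, replicate 3 was also the highest in *Dcstamp* (134, 145 and 650) and *Lrrc32* (38.8, 47 and 220). In *Il31ra* it was not (65.8, 104 and 80.2). The cause of the spread was not tested.

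The LPS co-receptor *Cd14* and the inhibitor *Irak3* were higher in M1. Of 15 genes of the LPS receptor and its adaptors, 5 were higher in M1, 1 was higher in M2 and 9 were not called (median 0.05, against -0.02 over all genes and backgrounds of 19.2% and 19.3%). These shares of all genes, higher in M1 and in M2, are the background of every list count below. *Tlr4*, the receptor itself, gave 2447, 2206 and 2362 in M1 and 4171, 4262 and 3453 in M2 and was the 1 member higher in M2 (log2 fold change -0.76, SE 0.12, adjusted p = 3.85e-05). *Cd14*, the co-receptor, gave 11783, 13492 and 14526 in M1 and 1271, 1298 and 1529 in M2 (log2 fold change 3.28, SE 0.21, adjusted p = 1.36e-09). *Irak3*, an inhibitor of the pathway, gave 3917, 5437 and 4833 in M1 and 338, 316 and 244 in M2 (log2 fold change 3.98, SE 0.23, adjusted p = 6.27e-10). *Myd88*, the main adaptor, gave 3821, 3329.5 and 3847 in M1 and 1192, 1172 and 1292 in M2 (log2 fold change 1.59, adjusted p = 6.45e-10). The kinases *Irak1* (-0.02, adjusted p = 0.921) and *Irak4* (-0.26, adjusted p = 0.0511) and the ligase *Traf6* (0.01, adjusted p = 0.944) did not pass.

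Of 18 NF-kappaB subunits and inhibitors, 10 were higher in M1 and 1 in M2 (median 1.19). The inhibitor *Nfkbia*, itself an NF-kappaB target, gave 7618, 7706 and 7954 in M1 and 715, 712 and 742 in M2 (log2 fold change 3.42, SE 0.17, adjusted p = 1.17e-10). *Nfkbiz*, a nuclear cofactor that NF-kappaB needs at secondary response genes, gave 1280.4, 1108 and 1438 in M1 and 46.8, 77.2 and 36.5 in M2 (log2 fold change 4.57, SE 0.31, adjusted p = 3.05e-09). *Tnfaip3*, the deubiquitinase A20, gave 2968, 2112 and 2429 in M1 and 485, 405 and 826 in M2 (log2 fold change 2.13, adjusted p = 5.21e-05). Among the subunits, *Nfkb2* (log2 fold change 1.65, adjusted p = 2.25e-07) and *Relb* (log2 fold change 1.4, adjusted p = 1.28e-05) of the non-canonical branch were higher in M1, whereas *Nfkb1* (log2 fold change -0.21, adjusted p = 0.338) and *Rela* (log2 fold change 0.30, adjusted p = 0.0299) did not reach the fold change criterion. *Rel* was the 1 subunit higher in M2, with 1035, 560.3 and 655 in M1 and 1212, 1338 and 1070.2 in M2 (log2 fold change -0.69, adjusted p = 0.0173), and this call was lost without M1 replicate 2 (-0.54, adjusted p = 0.0701) and without M1 replicate 3 (-0.62, adjusted p = 0.0562).

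Among 29 cytokines listed, 25 were tested, 17 were higher in M1 and 2 in M2 (median 3.47). *Il12b*, the p40 subunit of IL-12 and IL-23, gave 49.5, 82.2 and 88.3 in M1 and 0 in every M2 library (at least 23.4-fold, adjusted p = 1.64e-06). *Il1a* gave 396, 606 and 684 in M1 and 14.9, 5.29 and 3.04 in M2 (log2 fold change 6.17, adjusted p = 5.7e-10, and 7.03 without M2 replicate 1). *Il27*, a cytokine that acts on T cells, gave 574, 350.0 and 432 in M1 and 18.1, 14.8 and 14.2 in M2 (log2 fold change 4.84, adjusted p = 7.48e-09). *Il10*, the anti-inflammatory cytokine, was also higher in M1, with 275, 70.4 and 187 in M1 and 40.5, 47.6 and 37.5 in M2 (log2 fold change 2.08, adjusted p = 4.2e-04). *Ifnb1*, interferon beta, gave 85.8, 11.7 and 43.1 in M1 and 0 in M2 (at least 14.9-fold, adjusted p = 5.03e-04), and M1 replicate 1 was the highest. Without that library it was at least 8.74-fold higher (adjusted p = 0.0016). The antagonist of the IL-1 receptor, *Il1rn*, gave 32816, 19941 and 31625 in M1 and 209.7, 142 and 3245 in M2 (log2 fold change 4.55, adjusted p = 4.11e-04), and without M2 replicate 3 its value was 7.29.

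The cytokines higher in M2 were growth factors. *Igf1* gave 10213, 7095 and 8743 in M1 and 26734, 24606 and 26292 in M2 (log2 fold change -1.58, SE 0.12, adjusted p = 1.44e-08). *Pdgfa* gave 198, 113 and 116 in M1 and 459, 374 and 1187 in M2 (log2 fold change -2.24, adjusted p = 7.4e-05, and -1.58 without M2 replicate 3). *Tgfb1* also had the higher counts in M2, with 4382, 5343 and 5896 in M1 and 7335, 6869 and 7882 in M2, but at a log2 fold change of -0.50 (adjusted p = 0.00209) it stayed under the fold change criterion. Without M1 replicate 3 it was -0.62 (adjusted p = 0.00119).

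Of 10 CXC chemokines tested, 7 were higher in M1 and 0 in M2 (median 4.75). The neutrophil chemokine *Cxcl2* gave 711, 1341 and 1533 in M1 and 11.7, 3.17 and 31.4 in M2 (log2 fold change 6.25, adjusted p = 5.52e-08), and its relative *Cxcl3* gave 143, 138 and 211 in M1 and 1.06, 0 and 2.03 in M2 (at least 52.3-fold, adjusted p = 7.37e-09). For *Cxcl2* M2 replicate 3 was the highest M2 library, and the value without it was 7.27. *Cxcl16*, which is also a scavenger receptor, gave 10699, 8069.8 and 8269 in M1 and 1225, 803 and 677 in M2 (log2 fold change 3.32, adjusted p = 1.34e-08). CC chemokines were divided, with 6 of 11 higher in M1 and 4 in M2. *Ccl12* gave 5795, 2589 and 5013 in M1 and 96.9, 79.3 and 73 in M2 (log2 fold change 5.75, adjusted p = 2.27e-09). *Ccl2*, the monocyte chemokine, gave 20150.2, 16403 and 34373 in M1 and 689, 775 and 8443 in M2 (log2 fold change 2.84, adjusted p = 0.00477), and without M2 replicate 3 it was 4.98. *Ccl24*, an eosinophil chemokine, was higher in M2, with 13.2, 3.2 and 7.54 in M1 and 748, 610.4 and 784 in M2 (log2 fold change -6.47, SE 0.50, adjusted p = 1.32e-08), as was *Ccl6* with 2456, 2578 and 3963 in M1 and 24134, 18361 and 16931 in M2 (log2 fold change -2.72, SE 0.20, adjusted p = 7.6e-09).

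*Ccl22*, a chemokine for regulatory T cells, gave 8.8, 6.4 and 10.8 in M1 and 154, 91 and 3449 in M2 (log2 fold change -7.13, adjusted p = 3.99e-04), with M2 replicate 3 far above the other M2 libraries. It stayed higher in M2 without that library (-3.84, adjusted p = 0.00118). *Ccl4* gave 6816, 2804 and 5757 in M1 and 449, 493 and 3563 in M2 (log2 fold change 1.77, adjusted p = 0.0286) and was lost without M1 replicate 1 (1.5, adjusted p = 0.0938), M1 replicate 3 (1.67, adjusted p = 0.0648), M2 replicate 1 (1.33, adjusted p = 0.104) or M2 replicate 2 (1.34, adjusted p = 0.104). Without M2 replicate 3 it was 3.41 (adjusted p = 3.65e-05). By contrast, *Ccl3*, with 3566, 3147 and 4618 in M1 and 967, 1033 and 3862 in M2, did not pass (log2 fold change 0.95, adjusted p = 0.0665) except without M2 replicate 3 (1.89, adjusted p = 7.33e-05).

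Of 11 chemoattractant receptors, 9 were higher in M1 and 1 in M2. The exception was *Cxcr4*, the receptor of CXCL12, with 214, 121 and 99.1 in M1 and 3021, 2636 and 1255 in M2 (log2 fold change -3.99, SE 0.35, adjusted p = 6.58e-08). *Cx3cr1*, the fractalkine receptor, gave 123, 282 and 155 in M1 and 0, 0 and 1.01 in M2 (at least 59.5-fold higher in M1, adjusted p = 5.67e-09). *C5ar1*, a receptor of the complement fragment C5a, gave 6226, 8582 and 11539 in M1 and 788, 695 and 3528 in M2 (log2 fold change 2.39, adjusted p = 3.61e-04, and 3.53 without M2 replicate 3). The smallest of the 9 was *Ccr2*, with 576, 350.0 and 365 in M1 and 282, 261 and 309 in M2 (log2 fold change 0.60, adjusted p = 0.0163), a call that was lost without M1 replicate 1 (0.31, adjusted p = 0.156), M2 replicate 1 (0.58, adjusted p = 0.0425) or M2 replicate 2 (0.52, adjusted p = 0.0621).

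All 32 of the type I interferon-stimulated genes tested, of 35 listed, were higher in M1, from 1.52 for *Irf9* to 8.96 for *Oasl1* (median 4.09, against -0.02 over all genes and a background of 19.2% higher in M1). *Oasl1*, of the oligoadenylate synthetase family, gave 16089, 6805 and 10646 in M1 and 26.6, 10.6 and 29.4 in M2 (log2 fold change 8.96, SE 0.49, adjusted p = 3.36e-10). *Rsad2*, the antiviral enzyme viperin, gave 96597, 22489 and 48390.5 in M1 and 308, 133 and 141 in M2 (log2 fold change 8.17, SE 0.60, adjusted p = 7.97e-09), and without M1 replicate 1 it was 7.48. *Irf7*, the factor that amplifies the interferon response, gave 61519.9, 48566 and 58791 in M1 and 558, 471 and 243 in M2 (log2 fold change 7.05, adjusted p = 1.3e-09). *Isg15*, a ubiquitin-like modifier, gave 22558, 12404 and 17935 in M1 and 223, 165 and 183 in M2 (log2 fold change 6.54, adjusted p = 1.63e-09). The M1 libraries were not equal, and in *Rsad2*, *Isg15* and *Oasl1* M1 replicate 1 was the highest and M1 replicate 2 the lowest, the order also seen in *Ifnb1*. Of the 25 matched promoters of the list, 12 held the GAAA pair, as in the promoter printed for *Cxcl10*.

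Guanylate-binding proteins and immunity-related GTPases, which attack the vacuoles of intracellular pathogens, were higher in M1 in 13 of 14 members (median 3.18). *Iigp1* gave 3178, 1054 and 1969 in M1 and 12.8, 6.35 and 3.04 in M2 (log2 fold change 8.12, adjusted p = 1.64e-09, and 8.74 without M2 replicate 1). *Gbp5* gave 5285, 1720.2 and 2672 in M1 and 186, 258 and 102 in M2 (log2 fold change 4.15, adjusted p = 1.49e-07). The exception was *Gbp8*, with 55, 38.4 and 33.4 in M1 and 127, 112 and 54.8 in M2 (log2 fold change -1.21, adjusted p = 0.00898), where M1 replicate 1 was level with M2 replicate 3. Members of this family are similar in sequence, so single values carry the uncertainty of how shared reads were counted.

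Antigen presentation split by class. Of 17 MHC class I and immunoproteasome genes, 13 were higher in M1 and 1 in M2 (median 1.02). *Tap1*, the peptide transporter, gave 10718, 7158 and 8379 in M1 and 1031, 1124 and 899.8 in M2 (log2 fold change 3.1, SE 0.16, adjusted p = 2.0e-10). *B2m*, the light chain of class I, gave 111782, 89502 and 100313 in M1 and 62581, 47020.3 and 53928 in M2 (log2 fold change 0.88, SE 0.15, adjusted p = 9.08e-05). *Psmb10*, an immunoproteasome subunit, was the member higher in M2, with 3865, 3197 and 3941 in M1 and 8000.0, 6447 and 4837 in M2 (log2 fold change -0.81, adjusted p = 0.0057). Of 10 MHC class II genes, 7 were higher in M2 and 1 in M1 (median -1.83). *Ciita*, the master regulator of class II, gave 2.2, 3.2 and 2.15 in M1 and 497, 504 and 224 in M2 (at least 126-fold higher in M2, adjusted p = 1.98e-07). *Cd74*, the invariant chain, gave 706, 655 and 722 in M1 and 26401, 21684 and 14612 in M2 (log2 fold change -4.91, SE 0.55, adjusted p = 1.37e-06). *H2-Aa*, the alpha chain of a class II molecule, gave 91.3, 71.5 and 68.9 in M1 and 1662, 1091 and 888 in M2 (log2 fold change -3.97, SE 0.65, adjusted p = 7.43e-05). In these 3 genes M2 replicate 3 was the lowest M2 library but still far above M1.

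Costimulatory and checkpoint molecules went both ways, with 4 of 12 higher in M1 (33.3%) and 3 in M2 (25%), against 19.2% and 19.3% of all genes. The ligands of the receptor PD-1 were on opposite sides, as *Cd274* gave 23448, 9787 and 12416 in M1 and 3022, 2628 and 2011 in M2 (log2 fold change 2.58, adjusted p = 3.91e-06) and *Pdcd1lg2* gave 60.5, 30.9 and 38.8 in M1 and 1192, 1026 and 787 in M2 (log2 fold change -4.53, adjusted p = 1.84e-09). *Cd40* gave 2759, 1539.9 and 2014 in M1 and 579, 618 and 417 in M2 (log2 fold change 1.97, adjusted p = 2.07e-07). *Cd83* gave 23.1, 14.9 and 18.3 in M1 and 2142, 1733 and 1391 in M2 (log2 fold change -6.54, SE 0.33, adjusted p = 1.1e-10), the largest difference of the list. *Cd80* (log2 fold change -0.08, adjusted p = 0.683) and *Cd86* (log2 fold change 0.48, adjusted p = 0.114) did not pass, although *Cd86* did without M1 replicate 2 (0.65, adjusted p = 0.0406).

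**Figure D3:**
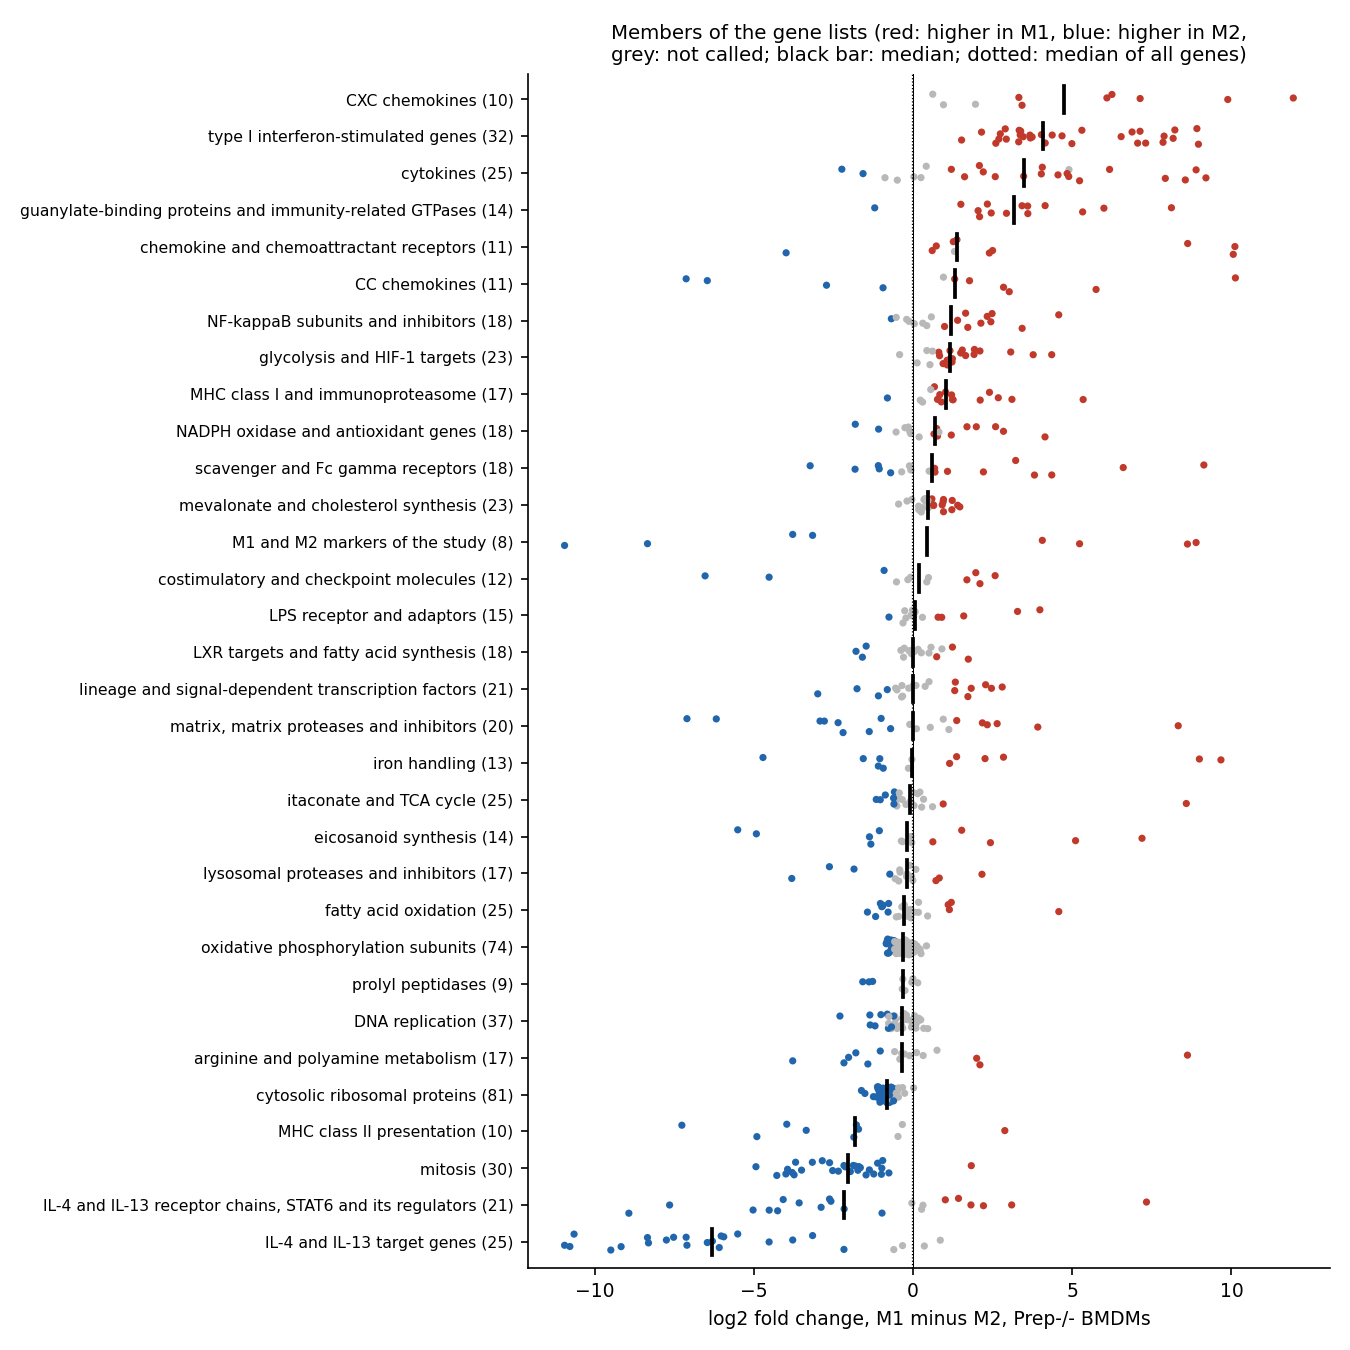
Log2 fold change of M1 against M2 (x axis) of every tested member of 32 gene lists (y axis, number of members in brackets), ordered by the median (black bar), with members higher in M1 in red, higher in M2 in blue and not called in grey, and the median of all genes (-0.02) dotted. CXC chemokines (median 4.75) and interferon-stimulated genes (4.09) lie at one end and IL-4 and IL-13 target genes (-6.31) at the other.

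The IL-4 and IL-13 axis differed between its receptors and its targets. Of 21 receptor chains, STAT6 regulators and induced factors, 12 were higher in M2 and 6 in M1 (median -2.17). *Il4ra*, the receptor chain that both cytokines use, was higher in M1, with 13949, 8498 and 9359 in M1 and 1314, 1408 and 999 in M2 (log2 fold change 3.1, SE 0.19, adjusted p = 1.03e-09), and so was *Il13ra1*, with 343, 189 and 235 in M1 and 43.7, 46.5 and 75.1 in M2 (log2 fold change 2.21, adjusted p = 4.75e-06). *Stat6* itself did not pass, with 5226, 4817 and 4668 in M1 and 4013, 4021 and 4208 in M2 (log2 fold change 0.27, adjusted p = 0.076). *Irf4*, a factor of the M2 state, gave 1.1, 5.34 and 1.08 in M1 and 1140.3, 1223 and 1519.6 in M2 (log2 fold change -8.93, SE 0.33, adjusted p = 4.01e-12). It was near the floor in M1, and without M1 replicate 2 the fitted value was -10.08. *Egr2* gave 14.3, 11.7 and 19.4 in M1 and 2499, 2229 and 4491 in M2 (log2 fold change -7.65, adjusted p = 6.09e-10) and *Pparg*, the lipid-sensing nuclear receptor, gave 173, 111 and 129 in M1 and 2739, 2231 and 2942 in M2 (log2 fold change -4.26, SE 0.20, adjusted p = 5.44e-11). The feedback inhibitors were split. *Socs3* was higher in M1, with 14261, 11901 and 12486 in M1 and 79.9, 88.9 and 71 in M2 (log2 fold change 7.33, SE 0.26, adjusted p = 2.91e-12). *Cish* was higher in M2, with 49.5, 40.6 and 37.7 in M1 and 1583, 1478 and 1126 in M2 (log2 fold change -5.03, SE 0.20, adjusted p = 9.35e-12). *Socs1*, a shared inhibitor of interferon and IL-4 signalling, gave 899, 567 and 851 in M1 and 1688, 1664 and 1214 in M2 (log2 fold change -0.98, adjusted p = 0.00826).

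Of 30 IL-4 and IL-13 target genes listed, 25 were tested, 21 were higher in M2 and 0 in M1 (median -6.31, against a background of 19.3% higher in M2). The list holds the 4 M2 markers of the study and genes long known to respond to IL-4. The lectins *Mgl2* (12.1, 14.9 and 10.8 in M1 and 8630.3, 10554 and 8503 in M2, log2 fold change -9.5, SE 0.42, adjusted p = 2.98e-11) and *Clec7a* (295, 192 and 403 in M1 and 19072, 16206 and 19820.3 in M2, log2 fold change -5.95, SE 0.29, adjusted p = 6.81e-11) were among them. *Matk*, a kinase that restrains Src kinases, gave 6.6, 8.54 and 8.62 in M1 and 1730.1, 1511 and 1975 in M2 (log2 fold change -7.75, SE 0.30, adjusted p = 8.74e-12). *Flt1*, a VEGF receptor, gave 29.7, 16 and 21.5 in M1 and 1329, 1409 and 2609 in M2 (log2 fold change -6.31, adjusted p = 2.08e-10). *Fn1*, fibronectin, gave 25.3, 66.2 and 7.54 in M1 and 5243, 4433 and 4077 in M2 (log2 fold change -7.11, adjusted p = 7.97e-09, and -8.15 without M1 replicate 2). *Cdh1*, E-cadherin, was at the floor in M1 with 55.4, 73 and 335 in M2 (at least 47.6-fold, adjusted p = 2.64e-06), again with M2 replicate 3 the highest, and without that library it was at least 19.8-fold. The members not called were *Plcb1*, *Alox15*, *Tgm2* and *Ch25h*.

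Genes of arginine metabolism divided between the states. *Ass1*, which rebuilds arginine from citrulline, gave 2318, 2554 and 2587 in M1 and 616, 916 and 339 in M2 (log2 fold change 2.0, SE 0.24, adjusted p = 3.14e-06). *Gch1*, the first enzyme toward the cofactor of nitric oxide synthase, gave 2144, 1625 and 2072 in M1 and 473, 371 and 520.4 in M2 (log2 fold change 2.1, SE 0.14, adjusted p = 2.83e-09). On the other side stood *Slc7a2*, an arginine transporter, with 612, 716 and 886 in M1 and 3249, 2633 and 4119 in M2 (log2 fold change -2.18, SE 0.15, adjusted p = 4.05e-09). *Odc1*, the first enzyme of polyamine synthesis, gave 813, 872 and 894 in M1 and 752, 742 and 1955 in M2 and did not pass (log2 fold change -0.42, adjusted p = 0.218), although it did without M2 replicate 2 (-0.67, adjusted p = 0.049), and without M2 replicate 3 the value was 0.17. *Srm*, spermidine synthase, gave 122, 279 and 283 in M1 and 400.3, 324 and 1112 in M2 (log2 fold change -1.42, adjusted p = 0.00554), and this call was lost without M2 replicate 3 (-0.70, adjusted p = 0.0525). In all, 3 of 17 genes of arginine and polyamine metabolism were higher in M1 (17.6%) and 6 in M2 (35.3%), against 19.2% and 19.3% of all genes. *Acod1*, the enzyme that makes itaconate from a citric acid cycle intermediate, gave 95353, 76819 and 90225 in M1 and 378, 191 and 116 in M2 (log2 fold change 8.58, SE 0.61, adjusted p = 5.31e-09). Among the other 24 genes of the cycle only *Slc25a1*, the citrate carrier, was higher in M1 (log2 fold change 0.94, adjusted p = 8.16e-05), and 6 were higher in M2, led by *Idh1* with 4661, 5805 and 5529.8 in M1 and 13678, 13094 and 8991 in M2 (log2 fold change -1.16, adjusted p = 4.88e-06) and *Fh1* with 726, 777 and 714 in M1 and 1585, 1650.2 and 1307 in M2 (log2 fold change -1.03, adjusted p = 4.17e-07).

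Glycolysis and HIF-1 target genes were higher in M1 in 18 of 23 members and in M2 in 0 (median 1.16). *Pfkfb3*, which makes the activator of phosphofructokinase, gave 9062, 6941 and 6099 in M1 and 544, 527 and 548 in M2 (log2 fold change 3.77, SE 0.29, adjusted p = 1.58e-08). *Slc16a3*, the lactate exporter, gave 5534, 6899 and 6922 in M1 and 550.4, 609 and 1151 in M2 (log2 fold change 3.07, SE 0.24, adjusted p = 1.78e-08). *Hif1a* gave 5113, 5124 and 4418 in M1 and 1146, 1123 and 1589.6 in M2 (log2 fold change 1.92, SE 0.24, adjusted p = 4.15e-06). *Ldha*, lactate dehydrogenase, gave 26924, 33864 and 34141 in M1 and 12619.7, 11563 and 21038 in M2 (log2 fold change 1.07, adjusted p = 2.93e-04). M2 replicate 3 was the highest M2 library in *Slc16a3*, *Hif1a* and *Ldha*. In *Slc2a1*, the glucose transporter, it came close to M1, with 2665, 3026 and 2997 in M1 and 745, 639 and 2494 in M2 (log2 fold change 1.16, adjusted p = 0.0149). The *Slc2a1* call was lost without M2 replicate 1 (0.88, adjusted p = 0.0715) or 2 (0.82, adjusted p = 0.0652) and was larger without M2 replicate 3 (2.03, adjusted p = 1.82e-06).

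Oxidative phosphorylation subunits differed by small amounts. Of 74 tested under the symbols listed (89 were listed), 13 were higher in M2 and 0 in M1 (median -0.33). The 13 are 17.6% of the list, against 19.3% of all genes. Of these, *Uqcrh* differed most (log2 fold change -0.84, adjusted p = 0.00293). Without M2 replicate 3 the count in M2 was 20. Fatty acid oxidation held 8 of 25 members higher in M2 (32%) and 4 in M1 (16%), against 19.3% and 19.2% of all genes. The subunits of the trifunctional protein were higher in M2, *Hadha* with 2329, 2188 and 2283 in M1 and 4572, 4852 and 4473 in M2 (log2 fold change -1.03, SE 0.09, adjusted p = 8.87e-08) and *Hadhb* with 828, 838 and 853 in M1 and 2418, 2270.0 and 2133 in M2 (log2 fold change -1.44, SE 0.09, adjusted p = 1.51e-09), whereas *Acsl1*, which loads fatty acids onto coenzyme A, was higher in M1, with 14425, 10190.2 and 9092 in M1 and 431, 419 and 562 in M2 (log2 fold change 4.58, SE 0.34, adjusted p = 9.79e-09).

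The count of mevalonate and cholesterol synthesis genes depended on single M2 libraries. Of 23 tested, 11 were higher in M1 and 0 in M2 (median 0.48), but the count was 18 without M2 replicate 3 and 6 without M2 replicate 2. *Sqle*, squalene epoxidase, gave 837, 1574 and 1588 in M1 and 462, 453 and 2636 in M2 and did not pass (log2 fold change 0.17, adjusted p = 0.786), yet without M2 replicate 3 it was higher in M1 (1.51, adjusted p = 8.65e-05). *Cyp51* gave 1129, 2162 and 2367 in M1 and 1056, 992 and 3776 in M2 (log2 fold change -0.04, adjusted p = 0.938) and became a DEG higher in M1 without M2 replicate 3 (0.85, adjusted p = 0.0158). In *Sqle* and *Cyp51*, M2 replicate 3 was above all M1 libraries and the other M2 libraries were below all of them.

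**Figure D4:**
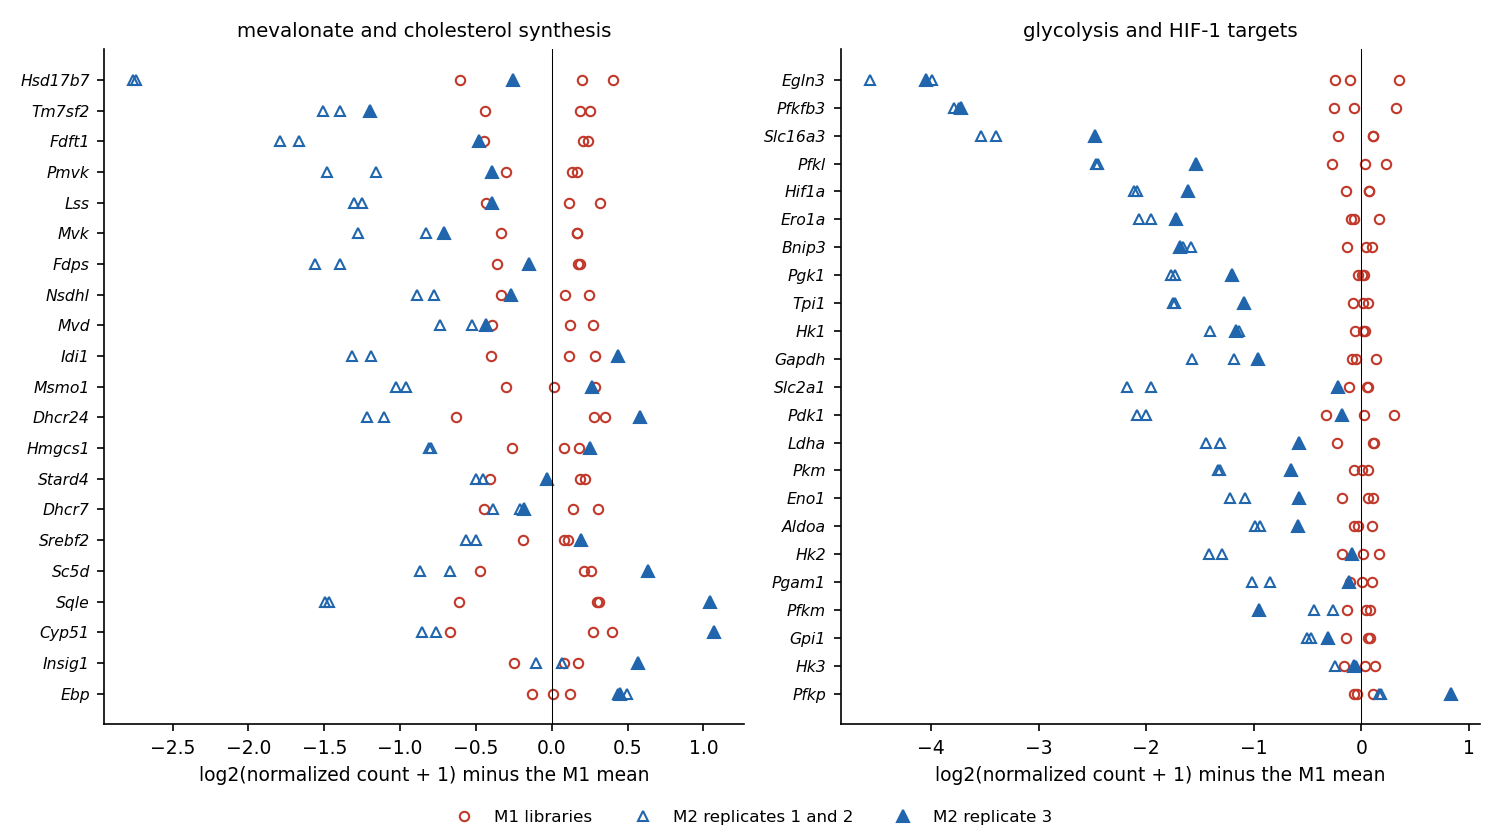
Log2 of the normalized count plus 1, minus the mean of the 3 M1 libraries (x axis), for genes of 2 lists (y axis), with M1 libraries as red circles, M2 replicates 1 and 2 as open and M2 replicate 3 as filled blue triangles. M2 replicate 3 lies among or above the M1 libraries for *Sqle*, *Cyp51* and *Pdk1* and just below them for *Slc2a1*, while it stays with the other M2 libraries for *Pfkfb3* and *Egln3*.

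Genes of cholesterol export and fatty acid synthesis, mostly targets of the oxysterol receptor LXR, gave 3 of 18 members in each direction. That is 16.7% each, against 19.2% (M1) and 19.3% (M2) of all genes. *Abcg1*, an exporter to HDL, was higher in M2, with 7272, 3792 and 4129 in M1 and 17355, 16454 and 12116 in M2 (log2 fold change -1.6, adjusted p = 2.27e-05), and *Abca1*, the exporter to lipid-poor apolipoproteins, was higher in M1, with 7871, 7169 and 6151 in M1 and 4318, 4048 and 4327 in M2 (log2 fold change 0.74, adjusted p = 0.00337). *Apoe* gave 19504, 8226 and 8749.6 in M1 and 46855, 30421 and 24296 in M2 (log2 fold change -1.48, adjusted p = 0.00214). *Nr1h3*, LXR alpha, gave 1547, 1462 and 1641 in M1 and 541, 482 and 376 in M2 (log2 fold change 1.73, SE 0.22, adjusted p = 4.33e-06).

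Eicosanoid synthesis was split between isoenzymes. *Ptgs2*, the inducible cyclooxygenase, gave 702, 475 and 486 in M1 and 16, 11.6 and 20.3 in M2 (log2 fold change 5.1, SE 0.58, adjusted p = 1.4e-06). *Ptges*, the inducible prostaglandin E synthase, gave 9543, 9255 and 9306 in M1 and 68.1, 46.5 and 77.1 in M2 (log2 fold change 7.19, SE 0.24, adjusted p = 2.31e-12). *Ptgs1*, the constitutive cyclooxygenase, gave 22, 39.5 and 26.9 in M1 and 1368, 1569.8 and 1124 in M2 (log2 fold change -5.51, SE 0.20, adjusted p = 4.01e-12). *Hpgd*, which inactivates prostaglandins, was higher in M2, with 17.6, 6.4 and 12.9 in M1 and 466, 577 and 89.3 in M2 (log2 fold change -4.93, adjusted p = 6.41e-06), with M2 replicate 3 the lowest. In all, 5 of 14 members tested were higher in each state.

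The oxidative burst and antioxidant genes were higher in M1 in 9 of 18 members and in M2 in 2. *Cybb*, the catalytic subunit of the phagocyte NADPH oxidase, gave 46926, 51392 and 47307 in M1 and 8878, 8364 and 6953 in M2 (log2 fold change 2.59, SE 0.19, adjusted p = 1.08e-08). *Sod2*, the mitochondrial superoxide dismutase, gave 21892, 27008 and 28440.3 in M1 and 1551, 1291 and 1536 in M2 (log2 fold change 4.14, SE 0.19, adjusted p = 3.41e-11). *Hmox1*, heme oxygenase, gave 100537, 81346 and 93897 in M1 and 9327, 9905 and 19337 in M2 (log2 fold change 2.84, SE 0.24, adjusted p = 4.23e-08). On the M2 side were *Nqo1* with 63.8, 112 and 77.5 in M1 and 308, 373 and 215 in M2 (log2 fold change -1.82, adjusted p = 4.1e-06) and *Gclc*, for the first step of glutathione synthesis, with 305, 285 and 311 in M1 and 506, 488 and 919 in M2 (log2 fold change -1.09, adjusted p = 7.59e-04).

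Iron handling genes divided between the states. *Fth1*, the ferritin heavy chain, gave 1536930.0, 1385010.0 and 1500160.0 in M1 and 322648, 255202 and 346664 in M2 (log2 fold change 2.26, SE 0.15, adjusted p = 2.15e-09) and held the most counts of any gene in the M1 libraries, while the light chain *Ftl1* did not pass (log2 fold change -0.04, adjusted p = 0.877). *Lcn2*, a protein that binds bacterial iron carriers, gave 40142, 52183 and 53750.1 in M1 and 92.6, 66.6 and 20.3 in M2 (log2 fold change 9.67, SE 0.48, adjusted p = 1.01e-10). *Tfrc*, the transferrin receptor, was higher in M2, with 701, 1075 and 948 in M1 and 27056, 23328 and 21389.6 in M2 (log2 fold change -4.72, SE 0.21, adjusted p = 3.73e-11), and so was the iron exporter *Slc40a1* with 822, 441 and 473 in M1 and 1729, 2203 and 1214 in M2 (log2 fold change -1.57, adjusted p = 5.15e-05). Of 13 genes of iron handling, 6 were higher in M1 and 5 in M2.

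Scavenger and Fc gamma receptors were higher in M1 in 9 of 18 members tested and in M2 in 5. *Marco*, a receptor for bacteria and particles, gave 13182, 21703 and 20209 in M1 and 50.0, 38.1 and 10.1 in M2 (log2 fold change 9.13, SE 0.53, adjusted p = 5.97e-10). *Fcgr1*, the high-affinity IgG receptor, gave 44972, 29287 and 39172 in M1 and 432, 283 and 452 in M2 (log2 fold change 6.6, SE 0.30, adjusted p = 4.41e-11). *Msr1* gave 36041, 34098 and 39115 in M1 and 1991, 2105 and 3686 in M2 (log2 fold change 3.81, SE 0.21, adjusted p = 2.4e-10). On the M2 side, *Trem2*, a lipid receptor, gave 5655, 4491 and 5229 in M1 and 18766, 16183 and 19569 in M2 (log2 fold change -1.83, SE 0.18, adjusted p = 2.76e-07). *Cd36* gave 19279, 16337 and 21424 in M1 and 21370.3, 20112 and 77967 in M2 (log2 fold change -1.07, adjusted p = 0.0216), a call lost without M2 replicate 3 (-0.16, adjusted p = 0.477) or M1 replicate 2 (-0.98, adjusted p = 0.0673). *Cd163* (6.6, 34.1 and 48.5 in M1 and 47.9, 88.9 and 54.8 in M2, log2 fold change -1.1, adjusted p = 0.0329) was lost without M1 replicate 1 (-0.65, adjusted p = 0.0814) or M2 replicate 2 (-0.81, adjusted p = 0.141).

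Matrix genes gave 6 of 20 members higher in M1 and 9 in M2. *Mmp14*, a membrane-bound collagenase, gave 17857, 21899 and 21121 in M1 and 76.7, 41.3 and 71 in M2 (log2 fold change 8.33, SE 0.64, adjusted p = 1.32e-08). *Thbs1*, thrombospondin 1, gave 4986, 4236 and 6387 in M1 and 374, 350.1 and 310.4 in M2 (log2 fold change 3.92, SE 0.32, adjusted p = 3.15e-08). *Mmp12*, the macrophage elastase, gave 610.5, 508 and 1401 in M1 and 24066, 19119 and 140415 in M2 (log2 fold change -6.19, adjusted p = 1.05e-05), and -4.72 without M2 replicate 3 or -6.78 without M1 replicate 3. *Timp2*, an inhibitor of these proteases, was higher in M2, with 2322, 1815 and 1955 in M1 and 18051, 17248 and 11046 in M2 (log2 fold change -2.93, SE 0.18, adjusted p = 8.73e-10). *Plau*, the urokinase, gave 793, 649.9 and 969 in M1 and 1274, 1178 and 14235 in M2 (log2 fold change -2.79, adjusted p = 0.00664), a call lost without M2 replicate 3 (-0.64, adjusted p = 0.282), as was that of *Mmp13* (log2 fold change -1.38, adjusted p = 0.0269, and -0.19 (adjusted p = 0.639) without it). The *Mmp13* call was also lost without M1 replicate 1 (-1.41, adjusted p = 0.0603) or M1 replicate 2 (-1.12, adjusted p = 0.102).

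Of 17 lysosomal proteases and inhibitors, 3 were higher in M1 and 4 in M2, against 19.2% and 19.3% of all genes. *Ctsc*, which activates serine proteases of granules, gave 29306, 28275 and 32554 in M1 and 7927, 8454 and 3765 in M2 (log2 fold change 2.16, adjusted p = 7.82e-07). *Ctsk*, a collagen-degrading cathepsin, gave 330.0, 234 and 251 in M1 and 1039, 946 and 969.8 in M2 (log2 fold change -1.86, adjusted p = 8.05e-08). *Ctsf* gave 125, 126 and 93.7 in M1 and 865, 809 and 468 in M2 (log2 fold change -2.63, adjusted p = 4.1e-08). The cathepsins *Ctsd* (log2 fold change 0.08, adjusted p = 0.639) and *Ctsb* (log2 fold change -0.41, adjusted p = 0.0115) did not pass the fold change criterion.

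Of 21 lineage and signal-dependent transcription factors, 7 were higher in M1 (33.3%) and 4 in M2 (19%), against 19.2% and 19.3% of all genes. *Spi1*, which encodes the lineage factor PU.1, gave 13349, 11256 and 12464 in M1 and 9488, 8787 and 10282 in M2 (log2 fold change 0.38, adjusted p = 0.0139), under the fold change criterion. *Cebpa* and *Cebpb*, factors of 1 family, went opposite ways. *Cebpa* gave 975, 973 and 953 in M1 and 8647, 8170.4 and 6373 in M2 (log2 fold change -3.0, SE 0.14, adjusted p = 3.72e-11). *Cebpb* gave 13924, 11971 and 13838 in M1 and 4224, 3233 and 3767 in M2 (log2 fold change 1.82, SE 0.16, adjusted p = 9.25e-08). *Batf*, a partner of IRF factors, gave 852, 883 and 876 in M1 and 133, 116 and 126 in M2 (log2 fold change 2.8, SE 0.15, adjusted p = 1.8e-10).

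Mitosis genes were mostly higher in M2. Of 30 mitosis genes, 29 were higher in M2 and 1 in M1 (median -2.05). *Ccnb2*, a mitotic cyclin, gave 22, 58.7 and 50.6 in M1 and 1352, 1922 and 781 in M2 (log2 fold change -4.94, SE 0.38, adjusted p = 1.38e-08). *Plk1*, a mitotic kinase, gave 24.2, 58.7 and 40.9 in M1 and 382, 720.4 and 313 in M2 (log2 fold change -3.51, SE 0.39, adjusted p = 1.36e-06). *Mki67* gave 983, 1171 and 849.7 in M1 and 2399, 4079 and 1906 in M2 (log2 fold change -1.48, SE 0.27, adjusted p = 2.22e-04). M2 replicate 2 was the highest in each. The exception was *Pttg1*, securin, with 1692, 1245 and 1574 in M1 and 433, 464 and 374 in M2 (log2 fold change 1.83, SE 0.24, adjusted p = 7.57e-06). Of 37 DNA replication genes, 9 were higher in M2 (24.3%, against 19.3% of all genes) and 0 in M1 (median -0.34). Without M2 replicate 1, 18 were higher in M2. *Mcm7*, of the replicative helicase, gave 177, 308 and 333 in M1 and 492, 769 and 828 in M2 (log2 fold change -1.35, adjusted p = 4.66e-04). *Pcna*, the sliding clamp, gave 7734, 5407 and 6649.7 in M1 and 5264, 4911 and 13799.5 in M2 and did not pass (log2 fold change -0.28, adjusted p = 0.449, and 0.34 (adjusted p = 0.135) without M2 replicate 3). Against M0, the log2 fold change of *Ccnb2* was -5.36 (SE 0.38, adjusted p = 1.04e-08) in M1 and -0.42 (SE 0.30, adjusted p = 0.273) in M2. TTTGAA, the letters of the cell cycle homology region, stood in 8 of 26 matched promoters of mitosis genes (30.8%), in 7 of 16 promoters of IL-4 and IL-13 targets (43.8%) and in 10.7% of all.

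Cytosolic ribosomal protein genes were higher in M2 in 71 of 81 members and in M1 in 0, by small amounts (median -0.83), led by *Rpl10a* with 4115, 4963 and 4786 in M1 and 14817, 14626 and 13329 in M2 (log2 fold change -1.63, SE 0.15, adjusted p = 9.69e-08). Many of these genes have processed pseudogenes, so shared reads may be counted elsewhere. Of the other prolyl peptidases, 3 of 8 were higher in M2. *Dpp7* gave 1256, 1503 and 1486 in M1 and 4526, 4333 and 3875 in M2 (log2 fold change -1.58, SE 0.11, adjusted p = 3.32e-09). *Pepd* gave 1355, 1374 and 1371 in M1 and 3782, 3847 and 3100.2 in M2 (log2 fold change -1.39, SE 0.11, adjusted p = 1.32e-08). *Prcp* gave 1817, 1824 and 1726 in M1 and 4944, 4536 and 3507 in M2 (log2 fold change -1.27, SE 0.11, adjusted p = 6.04e-08). *Prepl*, the closest relative of *Prep*, gave 465, 456 and 405 in M1 and 344, 385 and 469.7 in M2 (log2 fold change 0.15, adjusted p = 0.427), and *Dpp8* (log2 fold change -0.04, adjusted p = 0.848) and *Dpp9* (log2 fold change -0.26, adjusted p = 0.226) did not pass either.

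Relative to the library size after TMM scaling, the 10 genes with the most counts in the M1 libraries came to 21.4% in M1 and 12.3% in M2. The 10 with the most counts in M2 came to 17.2% in M1 and 14.5% in M2. The TMM factors of the M1 libraries were 0.852 to 0.925, so the M1 shares of unscaled counts were lower. Besides *Fth1* and *Saa3*, *Tmsb4x*, thymosin beta 4, was higher in M1, with 123509, 145376 and 164379 in M1 and 40899.8, 43238 and 45985 in M2 (log2 fold change 1.74, adjusted p = 1.35e-06), and *Lyz2*, lysozyme, with 431596, 554466 and 523960.0 in M1 and 310683, 268562 and 202013 in M2 (log2 fold change 0.95, adjusted p = 4.06e-04). *Psap*, the precursor of the saposins, was higher in M2, with 334116, 238899 and 251433 in M1 and 789246, 676400.0 and 603893 in M2 (log2 fold change -1.33, adjusted p = 2.5e-06), as was *Lgals3*, galectin 3, with 67488, 46054 and 55810.2 in M1 and 221743, 208112 and 242454 in M2 (log2 fold change -1.99, adjusted p = 5.77e-07). *Lyz2* and *Ftl1* have near-identical copies (*Lyz1* and *Ftl1-ps1*) and are uncertain to that extent.

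The same comparison in *Prep*+/- BMDMs gave 4478 DEGs (37.3%), of which 2001 were higher in M1 and 2477 in M2. In both genotypes 1476 genes were higher in M1 and 1536 higher in M2. These shared DEGs are 65.1% of the *Prep*-/- DEGs and 67.3% of the *Prep*+/- DEGs, and 58 genes were DEGs in opposite directions. Log2 fold changes of the genotypes correlated at r = 0.856 across the 12021 genes, a description of genes that share a design and a sequencing depth but no library. The test of the difference, the interaction *Prep*-/- minus *Prep*+/-, called 1435 genes (11.9%), with a higher log2 fold change in *Prep*-/- in 884 (7.35%) and a lower one in 551 (4.58%). Without *Prep*+/- M2 replicate 2 the latter count was 351.

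Both of the study's markers with a called interaction were on the M2 side. *Mrc1* gave 2633, 1934 and 2798 in M1 and 50825, 57730.1 and 49428 in M2 in *Prep*+/- BMDMs (log2 fold change -4.42), so its difference was smaller in *Prep*-/- (interaction 1.26, SE 0.24, adjusted p = 0.00315). *Chil3* gave 177, 277 and 215 in M1 and 21032, 25473 and 19115 in M2 in *Prep*+/- BMDMs (-6.62), and its difference was larger in *Prep*-/- (interaction -1.73, SE 0.46, adjusted p = 0.0195), though not called without *Prep*+/- M1 replicate 2 (-1.56, adjusted p = 0.0554). For the other 6 markers the interaction was not called, which does not show that the genotypes were alike. *Il6*, with *Prep*-/- M2 at the floor, gave 124, 279.6 and 224 in *Prep*+/- M1, and its interaction did not pass (interaction -3.7, SE 1.48, adjusted p = 0.107).

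The largest interactions with a higher log2 fold change in *Prep*-/- were led by *Ednrb*, the endothelin receptor B. It gave 1581, 744 and 745 in M1 and 519, 743 and 560.0 in M2 in *Prep*-/- (log2 fold change 0.75, SE 0.24, adjusted p = 0.015) and 38.7, 29.7 and 39.8 in M1 and 947, 974 and 1016 in M2 in *Prep*+/- (-4.76, interaction 5.51, SE 0.39, adjusted p = 1.62e-06). The *Prep*-/- call was lost without M1 replicate 1 (0.27, adjusted p = 0.221) or M2 replicate 1 (0.64, adjusted p = 0.0683). *Phgdh*, the first enzyme of serine synthesis, gave 486, 770.5 and 599 in M1 and 833, 1194 and 1312 in M2 in *Prep*-/- (log2 fold change -0.85, adjusted p = 0.0673) and 50.1, 74.9 and 53.9 in M1 and 2642, 2264 and 2952 in M2 in *Prep*+/- (-5.45; interaction 4.61, SE 0.58, adjusted p = 1.96e-04). *Dmpk*, a kinase known from myotonic dystrophy, gave 206, 309 and 324 in M1 and 9.58, 22.2 and 10.1 in M2 in *Prep*-/- (log2 fold change 4.31, adjusted p = 3.5e-09) and 1417, 1425 and 1356 in M1 and 1131, 1356 and 1070.3 in M2 in *Prep*+/- (0.24; interaction 4.08, SE 0.36, adjusted p = 9.41e-06). *Cx3cr1* gave 253, 227 and 156 in M1 and 11.7, 8.88 and 4.72 in M2 in *Prep*+/- (fitted interaction 4.0, SE 1.1, adjusted p = 0.024). Its *Prep*-/- M2 libraries were at the floor, and with that floor in their place the interaction was at least 1.24. *Cd69*, an early activation marker, gave 3730.0, 1049 and 2159 in M1 and 6.39, 5.29 and 0 in M2 in *Prep*-/- and 382, 478 and 463 in M1 and 11.7, 7.99 and 7.55 in M2 in *Prep*+/- (interaction 3.61, SE 0.96, adjusted p = 0.0201). The interaction of *Cx3cr1* was lost without M2 replicate 1 (3.55, adjusted p = 0.0753) or M2 replicate 2 (3.54, adjusted p = 0.064) and was 5.91 (adjusted p = 0.0381) without M2 replicate 3. Without *Prep*+/- M2 replicate 1, that of *Cx3cr1* was 3.68 (adjusted p = 0.0625) and that of *Cd69* was 3.37 (adjusted p = 0.0715), both lost. Without M2 replicate 3 the interaction of *Cd69* was 3.0 (adjusted p = 0.0456).

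In the other direction, *Acpp*, an acid phosphatase, gave 42.9, 90.7 and 64.6 in M1 and 43.7, 62.4 and 30.4 in M2 in *Prep*-/- (log2 fold change 0.54, adjusted p = 0.194) and 711, 912 and 949 in M1 and 27.1, 34.6 and 25.5 in M2 in *Prep*+/- (4.88; interaction -4.33, SE 0.48, adjusted p = 7.66e-05). *Slc6a12*, a betaine and GABA transporter, gave 46.2, 53.4 and 56 in M1 and 115, 69.8 and 91.3 in M2 in *Prep*-/- (log2 fold change -0.83, adjusted p = 0.0323) and 134, 129.7 and 93.6 in M1 and 16.2, 16 and 9.44 in M2 in *Prep*+/- (3.09; interaction -3.91, SE 0.46, adjusted p = 1.15e-04). The *Slc6a12* call in *Prep*-/- was lost without M1 replicate 1 (-0.77, adjusted p = 0.0833), M1 replicate 2 (-0.87, adjusted p = 0.0556) or M2 replicate 1 (-0.65, adjusted p = 0.12). *H2-M2*, a non-classical class I gene, gave 61.6, 54.4 and 65.7 in M1 and 7.45, 2.12 and 11.2 in M2 in *Prep*-/- and 177, 219 and 206 in M1 and 0.902, 0.888 and 0 in M2 in *Prep*+/- (fitted interaction -5.0, SE 1.33, adjusted p = 0.0203). Its *Prep*+/- M2 libraries were at the floor, and with that floor in their place the interaction was -3.07 or lower. *Mmp9*, gelatinase B, gave 114, 189 and 221 in M1 and 6.39, 14.8 and 465 in M2 in *Prep*-/- and 891, 1125 and 777 in M1 and 2.71, 8.88 and 48.1 in M2 in *Prep*+/- (interaction -5.46, SE 1.43, adjusted p = 0.0189). *Phlda1* gave 34.1, 83.2 and 107 in M1 and 13.8, 12.7 and 159 in M2 in *Prep*-/- and 448, 527 and 475 in M1 and 10.8, 10.7 and 55.7 in M2 in *Prep*+/- (interaction -3.98, SE 1.15, adjusted p = 0.0302). The interactions of these 3 genes were not called without M2 replicate 3, when they were -4.49 (adjusted p = 0.0561) for *H2-M2*, -1.56 (adjusted p = 0.36) for *Mmp9* and -1.78 (adjusted p = 0.266) for *Phlda1*. Without it, *Mmp9* and *Phlda1* were DEGs higher in M1 in *Prep*-/-, at 4.0 (adjusted p = 3.21e-04) and 2.45 (adjusted p = 0.015). The *Mmp9* interaction was also lost without *Prep*+/- M2 replicate 1 (-4.94, adjusted p = 0.0508) or 2 (-5.07, adjusted p = 0.0571). That of *Phlda1* was lost without any 1 of 6 other libraries, at adjusted p from 0.0515 to 0.0825.

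**Figure D5:**
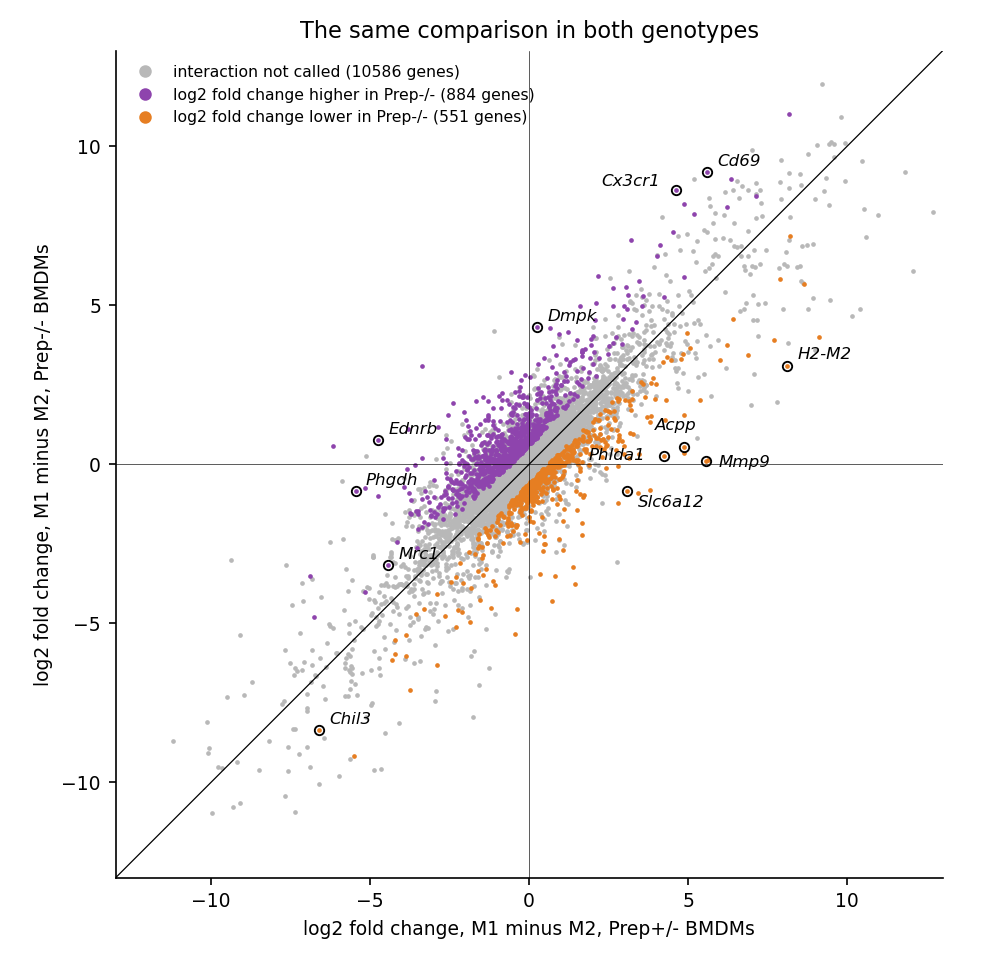
Log2 fold change of M1 against M2 in *Prep*-/- BMDMs (y axis) by that in *Prep*+/- BMDMs (x axis), 1 point per gene, with 884 genes in purple whose value was higher in *Prep*-/- by the interaction test and 551 in orange whose value was lower, and equality as the diagonal line. *Ednrb*, *Phgdh* and *Dmpk* lie far above the diagonal and *Mmp9*, *Acpp* and *Slc6a12* far below it.

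By list, the interaction was called in both directions. Over all genes, 7.35% had a higher and 4.58% a lower log2 fold change in *Prep*-/-, the background of every list count below. Of the 32 interferon-stimulated genes tested, 9 had a higher log2 fold change in *Prep*-/- and 2 a lower one. *Rsad2* was among the former, at 5157, 4219.8 and 5491 in M1 and 239, 79 and 188 in M2 in *Prep*+/- (4.88; interaction 3.29, SE 0.66, adjusted p = 0.00425, and 2.62 (adjusted p = 0.0119) without M1 replicate 1), and so was *Oasl1*, at 4656, 4593 and 5511 in M1 and 99.2, 36.4 and 46.2 in M2 (6.34; interaction 2.62, SE 0.59, adjusted p = 0.00864). Of 17 MHC class I and immunoproteasome genes, 0 had a higher and 7 a lower value, such as *B2m*, at 84298, 98636 and 96946 in M1 and 29394, 22582 and 24589 in M2 in *Prep*+/- (1.87; interaction -0.99, SE 0.21, adjusted p = 0.00571). Among IL-4 and IL-13 targets, 1 of 25 had a higher and 6 a lower value, such as *Slc7a2*, at 3116, 3427 and 3143 in M1 and 2475, 2746 and 2513 in M2 (0.32; interaction -2.5, SE 0.21, adjusted p = 5.22e-06), and *Fn1*, at 119.6, 115 and 96.2 in M1 and 1309, 1834 and 1323 in M2 (-3.75; interaction -3.36, SE 0.64, adjusted p = 0.00319). Without M1 replicate 2 the *Fn1* interaction was -4.39 (adjusted p = 8.46e-04). The difference of *Slc7a2* and *Fn1* toward M2 was thus larger in *Prep*-/-. The chemokine *Ccl6*, higher in M2 in *Prep*-/-, gave 4922, 5978 and 7059.9 in M1 and 4689.8, 4449.9 and 4109 in M2 in *Prep*+/- (0.44; interaction -3.16, SE 0.27, adjusted p = 6.4e-06). *Ccl9* was a DEG toward M2 in *Prep*-/-, with 26255, 34768 and 47935 in M1 and 70728, 67371 and 71976 in M2 (log2 fold change -0.95, adjusted p = 6.02e-04), and toward M1 in *Prep*+/-, with 88341, 119994 and 111337 in M1 and 34846, 32752 and 37560.2 in M2 (1.6; interaction -2.55, SE 0.28, adjusted p = 6.73e-05).

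Mevalonate genes had a higher value in *Prep*-/- in 4 of 23 members, such as *Mvk*, mevalonate kinase, with 558, 793 and 793 in M1 and 289.6, 396 and 431 in M2 in *Prep*-/- (log2 fold change 0.94, adjusted p = 2.68e-04) and 466, 426 and 532 in M1 and 487, 454 and 443 in M2 in *Prep*+/- (0.04; interaction 0.90, SE 0.25, adjusted p = 0.0238), and a lower one in 0, with 11 DEGs higher in M1 in *Prep*-/- against 1 in *Prep*+/-. The *Mvk* interaction was lost in 5 of 12 fits with 1 library left out (adjusted p up to 0.0689). The count of 11 mevalonate DEGs depended on single M2 libraries, as given above. DNA replication genes had a higher value in 9 of 37 members and a lower one in 1, against 7.35% and 4.58% of all genes. Their DEGs toward M2 numbered 9 in *Prep*-/- and 30 in *Prep*+/-. Mitosis genes had a higher value in 8 of 30, such as *Aurkb*, a kinase of chromosome segregation, with 223, 208 and 197 in M1 and 362, 729.9 and 393 in M2 in *Prep*-/- (log2 fold change -1.24, adjusted p = 4.32e-04) and 248, 197 and 245 in M1 and 1611, 1626 and 1590.3 in M2 in *Prep*+/- (-2.8; interaction 1.57, SE 0.34, adjusted p = 0.00702), and a lower one in 0, with 29 DEGs toward M2 in either genotype. Ribosomal protein genes had 71 DEGs toward M2 in *Prep*-/- and 30 in *Prep*+/-, yet the interaction was called in 1 of 81, *Rpl10a* (interaction -0.64, SE 0.20, adjusted p = 0.0467), a call that was lost without any 1 of 10 libraries of the 12 in that test. A difference between the genotypes in this list was not shown gene by gene.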

How the data were processed

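RNA-seq counts of 18 BMDM cultures were deposited by the authors as raw counts per gene symbol. Per the methods and labels, total RNA (TRIzol) was made into stranded poly(A) libraries, trimmed with Trimmomatic 0.36, aligned to GRCm39 with HISAT2 2.2.1.0 and assembled with stringtie2. The annotation release and the handling of strand and of reads with several matches are not given in the sources used here. Each column was matched to a sample by its title, and 0 columns were left without one. Counts were tested with edgeR 4.0.16 (limma 3.58.1, R 4.3.3): TMM normalization, filterByExpr over the 6 groups, all 18 libraries with 1 coefficient per group, and the quasi-likelihood test with Benjamini-Hochberg adjustment over all 12021 genes tested. DEGs passed 0.05 for the adjusted p and 1.5 for the fold change in either direction. The contrast is of the 6 *Prep*-/- M1 and M2 libraries. The other 12 add to the estimate of the spread, to the filter on low counts and to the normalization. From the 6 libraries alone, 11397 genes were tested. The study's own test, DESeq2 (1.42.0), was an alternative, as were other normalizations, filters, replicate blocks and leaving out each library. Normalized counts are counts divided by the effective library size, times the mean effective size of the 18 libraries. Coordinates are from GENCODE vM39. Stretches shared between genes were found with blastn 2.17.0.

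The members and the 32 gene lists were chosen with earlier results of these data known. The text names *Prep*, members of the lists, in each direction the 10 DEGs of largest fitted fold change with at least 5 CPM and no overlap, the 5 largest interactions, and the 10 most abundant genes per state. Lists are described by counts and medians, without a set test. The scripts were tested on simulated counts, in which 200 of 11805 genes were changed by a log2 of 2 in *Prep*-/- M1. With edgeR 89% of these were recovered and 7.77% of the calls were false. DESeq2 recovered 92%. The unchanged *Prep*+/- comparison gave 0 edgeR calls.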

Additional observations from a re-analysis of the deposited data

Results flagged for a closer look

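Genes were taken up here where the M1 against M2 difference itself differed between *Prep*-/- and *Prep*+/- BMDMs by the interaction test. Over all genes tested, 884 had a higher and 551 a lower log2 fold change in *Prep*-/-. Of the genes given with values in the report, 20 had a higher one. Among chemokines, cytokines and their receptors, the interaction was 2.29 for *Ccl12*, 1.57 for *Ccr2*, 4.0 for *Cx3cr1* and 0.75 for *Igf1*. Among interferon-stimulated, MHC and costimulatory genes, the interaction was 3.29 for *Rsad2*, 2.62 for *Oasl1*, 1.0 for *Cd40*, 3.61 for *Cd69* and 2.85 for *Siglece*. Among IL-4 and IL-13 targets, the interaction was 1.26 for *Mrc1*. Among LPS receptor and NF-kappaB genes, the interaction was 0.69 for *Tlr4*. Among lipid genes, the interaction was 0.90 for *Mvk* and 1.63 for *Acsl1*. Among iron, oxidant and scavenger genes, the interaction was 2.13 for *Slc40a1* and 1.18 for *Msr1*. Among other genes, the interaction was 5.51 for *Ednrb*, 4.61 for *Phgdh*, 4.08 for *Dmpk*, 1.21 for *Mki67* and 1.57 for *Aurkb*. A further 33 had a lower one. Among chemokines, cytokines and their receptors it was -2.31 for *Ccl3*, -3.16 for *Ccl6*, -2.55 for *Ccl9*, -1.44 for *Cxcl16* and -0.98 for *Tgfb1*. Among interferon-stimulated, MHC and costimulatory genes it was -0.99 for *B2m*, -1.19 for *Psmb10*, -5.0 for *H2-M2* and -1.89 for *Cd86*. Among IL-4 and IL-13 targets it was -1.73 for *Chil3*, -2.5 for *Slc7a2*, -3.36 for *Fn1*, -1.74 for *Clec7a* and -1.3 for *Ptgs1*. Among LPS receptor and NF-kappaB genes it was -1.19 for *Cd14* and -1.83 for *Nfkbiz*. Among lipid genes it was -1.55 for *Apoe*, -2.2 for *Abca1* and -1.02 for *Ptges*. Among iron, oxidant, scavenger and nitric oxide genes it was -1.18 for *Tfrc*, -2.08 for *Cd163*, -0.92 for *Cybb*, -0.82 for *Sod2* and -0.66 for *Gch1*. Among proteases, matrix genes and lysozyme it was -5.46 for *Mmp9*, -3.77 for *Thbs1*, -1.02 for *Ctsf*, -0.73 for *Prcp* and -1.27 for *Lyz2*. Among other genes it was -4.33 for *Acpp*, -3.91 for *Slc6a12*, -3.98 for *Phlda1* and -0.64 for *Rpl10a*. With each of the 12 M1 and M2 libraries left out in turn, the interaction stayed called in every fit for 33 of the genes and was lost in at least 1 for 20, most often for *Rpl10a* (10 of 12), *Ptges* (10 of 12), *Mki67* (10 of 12), *Apoe* (9 of 12), *Ctsf* (8 of 12), *Phlda1* (7 of 12) and *Gch1* (7 of 12). Single libraries moved some values by over 1.5-fold while the call stayed. Without *Prep*-/- M2 replicate 3 the interaction was -1.37 for *Ccl3*, 3.0 for *Cd69* and 5.91 for *Cx3cr1*. The call of *Ccl3* was lost without *Prep*+/- M2 replicate 2 (-2.08). The interaction was 2.62 for *Rsad2* without *Prep*-/- M1 replicate 1 and -4.39 for *Fn1* without M1 replicate 2. Without *Prep*+/- M2 replicate 3 it was -7.19 for *Mmp9* and -5.22 for *Phlda1*. The values of 3 genes are fitted against a group at the floor of 3 counts or fewer per library. With the floor in its place, the interaction was at least 1.24 for *Cx3cr1*, at least 1.8 for *Siglece* and -3.07 or lower for *H2-M2*. No cause of these differences was tested.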

How the results depend on the processing

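The counts of DEGs were 2313 higher in M1 and 2315 higher in M2. They ranged over 2290 to 2389 and 2128 to 2375 with the DESeq2 Wald test, DESeq2 size factors, no filter or a stricter filter on low counts. With the replicate number as a block within genotype they were 2326 and 2303. In the 6 *Prep*-/- M1 and M2 libraries alone they were 2071 and 2081, and 2127 and 2092 there with the replicate block. Same-numbered M1 and M2 libraries correlated at r = 0.183, 0.054 and 0.138 in their deviations from the group means. Of the 6 libraries, 5 correlated best with their own number. In *Prep*+/- the same-numbered values were -0.196, -0.206 and -0.022. The labels do not say what the numbers mark, so they were not taken as pairs in the main fit. Stricter criteria lowered the counts by construction. A fold change over 2 left 1514 and 1360 DEGs and 541 and 261 interaction genes, and glmTreat, which tests against a fold change of 1.5, left 1563 and 1386 DEGs and 210 and 86 interaction genes. Leaving out 1 library at a time gave 2108 to 2474 DEGs higher in M1, 2232 to 2406 higher in M2, 590 to 1102 interaction genes with a higher value and 351 to 673 with a lower value in *Prep*-/-. Over 716 named or listed genes, 500 kept their call in every alternative. Of 10712 single values, 404 lost the call and 152 gained it, and 2 gained a call with the opposite sign, *Acsl3* (0.87, adjusted p = 0.00488) and *Cyp51* (0.85, adjusted p = 0.0158), both without M2 replicate 3. Without M2 replicate 2 these genes gave -0.41 and -0.37. Of 960 counts of list members, 48 moved by over 1.5 times, among them mevalonate genes higher in M1 (11, or 18 without M2 replicate 3), oxidative phosphorylation subunits higher in M2 (13, or 20 without it) and DNA replication genes higher in M2 (9, or 18 without M2 replicate 1). The cause was not tested. With 3 libraries per group, a fold change that rests on 1 library cannot be told apart from one of the group, and genes at or under 3 counts per library in a group have a lower bound only.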
